A study of Saccharomyces cerevisiae with 9 samples.

Results

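Ribosome footprints of Saccharomyces cerevisiae that lacked both PAB1 and PBP1 (pab1Δpbp1Δ) were compared with those of the wild type (WT), with 3 of the 9 libraries of the study in each of these groups and 3 further libraries of a pbp1Δ strain beside them. All entries of the isoform expected count table were taken, 6952 in all, of which 6375 had a count above 0 after rounding in at least 1 of the 6 libraries and 5880 were tested. Both strains were of the W303 background, of mating type MATa with mutant alleles of ADE2, CAN1, HIS3, LEU2, TRP1 and URA3, and were grown in rich YEPD medium at 30 °C. URA3 took the place of PBP1 and kanMX that of PAB1, so that the double mutant carried both markers and WT carried neither. According to the methods, 1 WT strain gave all WT libraries as technical replicates, the pab1Δpbp1Δ isolates were derived from a single pbp1Δ isolate, and the double mutant grew more slowly than WT. The p-values of every comparison with WT therefore set the spread of libraries of 1 WT strain beside that of isolates of 1 lineage. Loss of Pab1, loss of Pbp1, the markers, growth rate and the shared lineage cannot be told apart in this comparison.

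In yeast cytoplasm, Pab1 is the main protein on poly(A). It coats the poly(A) tails of mRNAs, binds the initiation factor eIF4G and the release factor eRF3, and takes part in tail shortening by the Pan2-Pan3 nuclease. Pbp1, the yeast relative of human ataxin-2, binds Pab1, and its loss allows cells to live without Pab1, which is otherwise essential. Ribosome profiling counts the mRNA fragments that ribosomes shield from nuclease, so a change in count can come from a change in mRNA level, in ribosome occupancy, or in both. Counts were scaled between libraries, so higher and lower are relative to the other transcripts and do not give footprints per cell.

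The WT libraries held 4790126, 5110299 and 5282755 expected counts, and the pab1Δpbp1Δ libraries 5500986, 6903587 and 3149040. Libraries of the double mutant spread more widely: over the 4540 entries whose normalized counts averaged 50 or more, the SD of log2 normalized counts had a median of 0.231 within pab1Δpbp1Δ and 0.141 within WT. The WT libraries were technical replicates and the double mutant libraries came from isolates, so these spreads do not measure the same thing. Markers of the MATa cell type were present in all 6 libraries, with a summed normalized count of 7122 to 7721 in WT and 2258 to 3698 in the double mutant over 6 genes. The 4 markers of the MATalpha type together reached no more than 18.2 in WT and 115 in the double mutant. Across the 16 chromosomes, the median log2 ratio of each double mutant library to the WT mean lay between -0.19 and 0.19.

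The deleted genes were examined first, and they matched the labels. PAB1 (chromosome V, 510373 to 512106, R64 assembly) had 4997, 5322 and 4841 normalized counts in the WT libraries and 0, 2.76 and 0 in the double mutant. PBP1 (chromosome VII, 851047 to 853215) had 768, 747 and 732 in WT and 0 in each double mutant library, which was at least 244-fold lower when set against 3 counts per library. URA3, which encodes orotidine-5'-phosphate decarboxylase and marks the PBP1 deletion, had 176, 212 and 202 in WT and 329, 327 and 328 in the double mutant. All 3 URA3 values of the double mutant lay above all 3 of WT, with a log2 fold change of 0.74 (SE 0.18, DESeq2 adjusted p = 0.000261). Of the other marker genes of the background, LEU2 had a log2 fold change of -1.09 (adjusted p = 0.00414), a call that was lost without WT replicate 1, 2 or 3 or pab1Δpbp1Δ replicate 1, where the adjusted p-value was 0.0166, 0.0527, 0.016 and 0.024. The LEU2 call was also lost with total counts (adjusted p = 0.0123) and with the replicate block (0.0132). ADE2, CAN1, HIS3 and TRP1 were not called.

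Footprints of the double mutant differed broadly from those of WT, with many genes of ribosome assembly and translation initiation lower and many stress genes higher. At a DESeq2 adjusted p-value below 0.01, 1818 of 5880 tested entries were called (30.9%), with 921 higher (15.7%) and 897 lower (15.3%) in pab1Δpbp1Δ. These shares of all tested entries are the background against which the counts of gene groups below are read. Rises were larger than falls: 621 of the higher and 305 of the lower calls changed by at least 1 on the log2 scale, and 100 and 14 by at least 3. However, more of the higher calls rested on low counts, where fold changes are least certain. Calls that averaged 100 or more normalized counts were 632 of the higher and 860 of the lower. In 15 calls all 3 WT libraries were at 0, and in 1 call all 3 double mutant libraries were. Among called entries, 1812 had groups without overlap, and so did 55.1% of everything tested. In the same kind of test, 1.21% of 5638 entries were called for pbp1Δ against WT and 21.3% of 5772 for pab1Δpbp1Δ against pbp1Δ. These comparisons share libraries with the one described here, so their values are given only side by side. When library totals replaced the size factors, the median log2 fold change moved by 0.11, which raised the share of calls that were higher from 50.7% to 61.2%. The share was 62.9% and 62.7% with limma on log2(FPKM + 1) and log2(FPKM + 0.1).

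**Figure D1:**
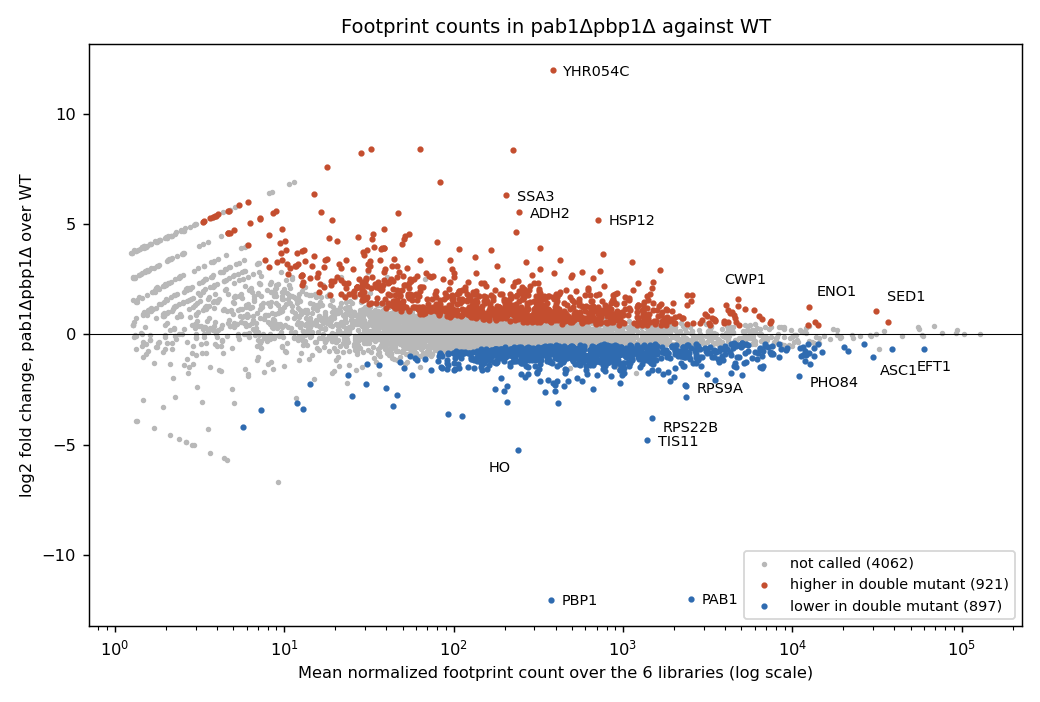
Each point is a tested entry, with its mean normalized footprint count over the 6 libraries on a log axis and its log2 fold change of pab1Δpbp1Δ over WT on the other. The 921 higher calls in red reach further from 0 than the 897 lower calls in blue, apart from the deleted genes PAB1 and PBP1.

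The genes with the largest rises were of mixed function and included 3 heat shock genes, HSP12, SSA3 and SSA4, and the glucose-repressed ADH2. HSP12, which encodes a small membrane-associated heat shock protein, had 50.6, 30.9 and 31.4 normalized counts in the WT libraries and 1613, 1132 and 1425 in the double mutant. The log2 fold change of HSP12 was 5.21 (SE 0.24, adjusted p = 2.81e-100). Every HSP12 value of the double mutant was more than 20 times every WT value. ADH2, the glucose-repressed alcohol dehydrogenase that oxidizes ethanol, had 8.43, 11 and 11.2 in WT and 401, 697 and 329 in the double mutant (log2 fold change 5.55, SE 0.39). ADH1, the fermentative enzyme whose sequence resembles that of ADH2, had 45047 to 56518 in WT and 55042 to 64253 in the double mutant and was not called. SSA3 and SSA4 are stress-inducible members of the cytosolic Hsp70 family. SSA3 had 3.16, 7.98 and 4.06 in WT and 105, 613 and 498 in the double mutant (log2 fold change 6.32, SE 0.88). SSA4 had 74.8, 81.8 and 67.9 in WT and 267, 1541 and 516 in the double mutant (log2 fold change 3.37, SE 0.73). Replicate 1 of the double mutant was the lowest for both, and without replicate 2 the log2 fold change of SSA4 was 2.38. The constitutive Hsp70 genes SSA1 and SSA2 had log2 fold changes of 0.22 and 0.26 and were not called (adjusted p = 0.138 and 0.117).

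The other genes among the 10 highest, taken from calls that averaged 100 or more normalized counts and whose groups did not overlap, were HBT1 (log2 fold change 4.67), DPI8 (3.95), BIO4 (3.86), PDH1 (3.84), RTN2 (3.54) and YHR054C. HBT1 encodes a protein of polarized cell morphogenesis, BIO4 an enzyme of biotin synthesis, PDH1 an enzyme of propionate metabolism and RTN2 a reticulon of the endoplasmic reticulum. Their adjusted p-values ranged from 4.44e-42 for DPI8 to 2.32e-18 for BIO4. YHR054C (chromosome VIII, 213185 to 214249) had no count in WT and 564, 610 and 1129 normalized counts in the double mutant, which was at least 250-fold higher when set against 3 counts per library. It was also higher in pbp1Δ against WT, with a log2 fold change of 7.20 (DESeq2 adjusted p = 0.000393). For pab1Δpbp1Δ against pbp1Δ the value was 4.79 (adjusted p = 1.02e-05). YHR054C repeats part of RSC30, a subunit gene of the RSC chromatin remodeling complex, so reads can be divided between them. RSC30 itself had 595, 590 and 650 in WT and 407, 366 and 332 in the double mutant. The sum of both was 612 ± 33.2 in WT and 1136 ± 282 in the double mutant (SD, n = 3 each), a log2 ratio of 0.89.

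The lowest genes after the deleted ones were of mixed function. HO (chromosome IV, 46271 to 48031), the endonuclease gene of mating-type switching, had 362, 531 and 510 normalized counts in WT and 7.82, 18 and 9.11 in the double mutant (log2 fold change -5.26, SE 0.34, adjusted p = 2.04e-51). The HO values of the groups were separated by more than 10-fold. TIS11, which encodes an mRNA-binding protein of the response to low iron, had 2322, 1268 and 4456 in WT and 225, 26.2 and 34.9 in the double mutant (log2 fold change -4.81, SE 1.03). The TIS11 values did not overlap but varied widely within both groups, and the log2 fold change was -6.47 without pab1Δpbp1Δ replicate 1. The rest had log2 fold changes of -3.79 for RPS22B and -2.84 for RPS9A, both of the small ribosomal subunit, -3.70 for the ferric reductase gene FRE4, -3.11 for the methionine synthesis gene MET2, -3.08 for the decarboxylase gene ARO10 of the Ehrlich pathway and -2.61 for the phenylacrylic acid decarboxylase gene PAD1.

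**Figure D2:**
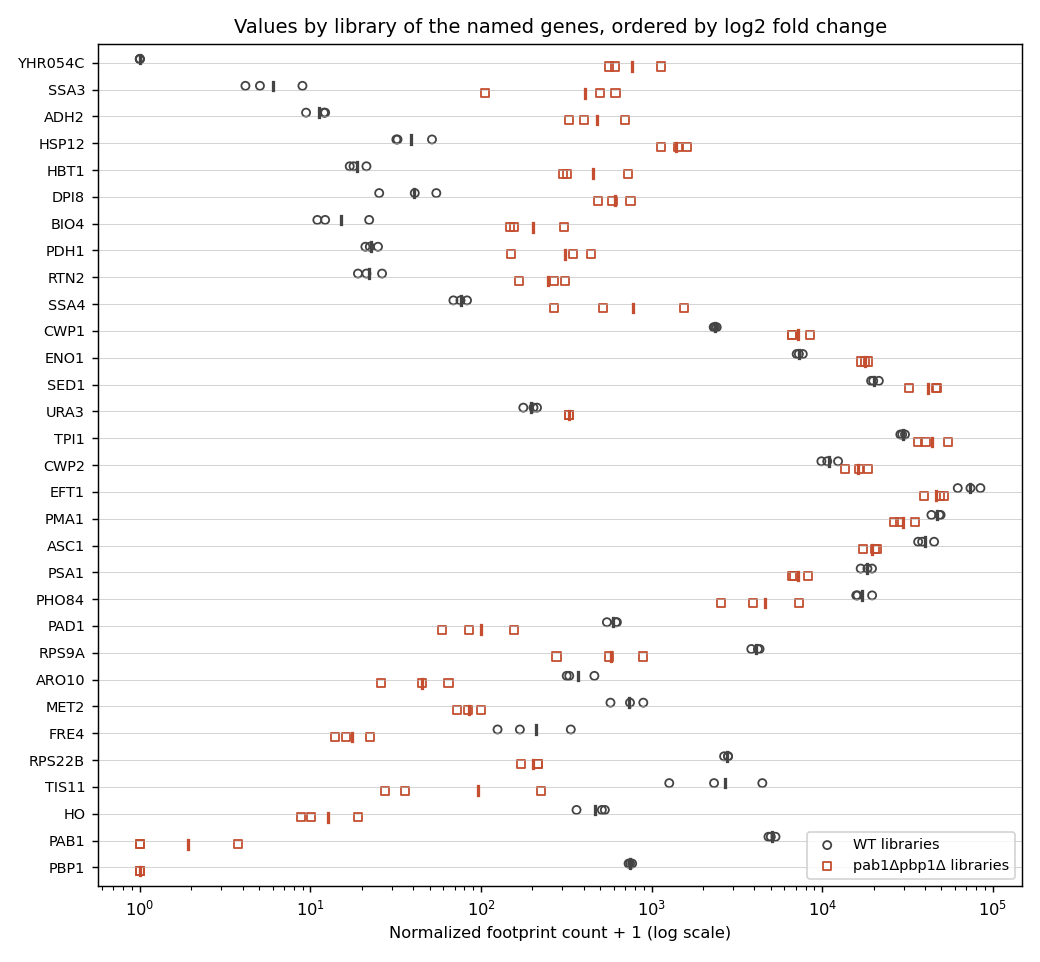
Normalized footprint counts plus 1 on a log axis are shown for each library of the deleted genes, the marker URA3, the 10 highest and 10 lowest genes and the 5 largest rises and falls in count. Circles are WT libraries, squares are pab1Δpbp1Δ libraries and short lines are group means; the groups do not overlap for any of the genes drawn, which the choice of the 10 highest and 10 lowest required.

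In numbers of footprints, the largest changes lay in transcripts with high counts. The largest falls in count were those of EFT1, ASC1, PMA1, PHO84 and PSA1. ASC1, the ribosome-associated Gβ-like protein that is the yeast RACK1, had 36509, 38534 and 45293 normalized counts in WT and 17326, 20474 and 20962 in the double mutant (log2 fold change -1.03, SE 0.14). PMA1, the plasma membrane proton pump, had a log2 fold change of -0.66 and PSA1, which makes GDP-mannose for cell wall mannoproteins, one of -1.33. PHO84, the high-affinity phosphate transporter, had 15838, 16103 and 19615 in WT and 7351, 3941 and 2536 in the double mutant (log2 fold change -1.90, SE 0.46). EFT1 and EFT2 encode the same elongation factor 2, and reads can match both. EFT1 had a log2 fold change of -0.66 (adjusted p = 0.000302) and EFT2 one of 0.02. The sum of both was 104414 ± 14423 in WT and 77994 ± 8810 in the double mutant (SD, n = 3 each). Without WT replicate 3, EFT1 was not called (adjusted p = 0.0128). The largest rises were those of the cell wall proteins SED1, CWP1 and CWP2 and of the glycolytic enzymes ENO1 and TPI1. ENO1 had 7297, 7692 and 7085 in WT and 16781, 18482 and 17888 in the double mutant (log2 fold change 1.27, SE 0.11). SED1 had 21481, 19904 and 19350 in WT and 47034, 32308 and 46492 in the double mutant (log2 fold change 1.05, SE 0.17), and CWP1 had a log2 fold change of 1.62. TPI1 (0.57) was not called without WT replicate 1, 2 or 3 (adjusted p = 0.0184, 0.0401 and 0.0272), and CWP2 (0.56) was not called without WT replicate 2 or 3 or pab1Δpbp1Δ replicate 3 (adjusted p = 0.0301, 0.0332 and 0.0167). With edgeR neither TPI1 nor CWP2 was called (adjusted p = 0.0109 and 0.0103), and CWP2 was not called with all 9 libraries (0.0115).

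To place the calls in cell functions, the members of 49 gene lists were counted. Lists and members were chosen with earlier results of these data known, so their counts are a description and not a test. Lists of ribosome production held many lower and no higher calls. Of 76 assembly factors of the large subunit, 45 were lower and none was higher, with a median log2 fold change of -0.71. The steepest falls were those of the RNA helicase gene DBP3 (-1.61), NOP7 (-1.54) and the rRNA methyltransferase gene NOP2 (-1.47). Of 62 factors of the small subunit processome, which folds and cuts the pre-rRNA, 38 were lower and none was higher (median -0.68), led by RRP9 (-2.07), SAS10 (-1.75) and UTP4 (-1.63). RRP9 had 508, 571 and 665 normalized counts in WT and 151, 150 and 111 in the double mutant, and no double mutant library came near the WT range. Of 25 subunits of RNA polymerases I and III, which transcribe rRNA and tRNA, 7 were lower and none was higher. They included the largest polymerase I subunits RPA190 (-1.18) and RPA135 (-0.96), and the count of lower subunits was 4 without WT replicate 1. The called share of polymerase subunits was 28%, all lower, beside 30.9% called and 15.3% lower of all tested entries. The median log2 fold change of all tested entries was 0.05.

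**Figure D3:**
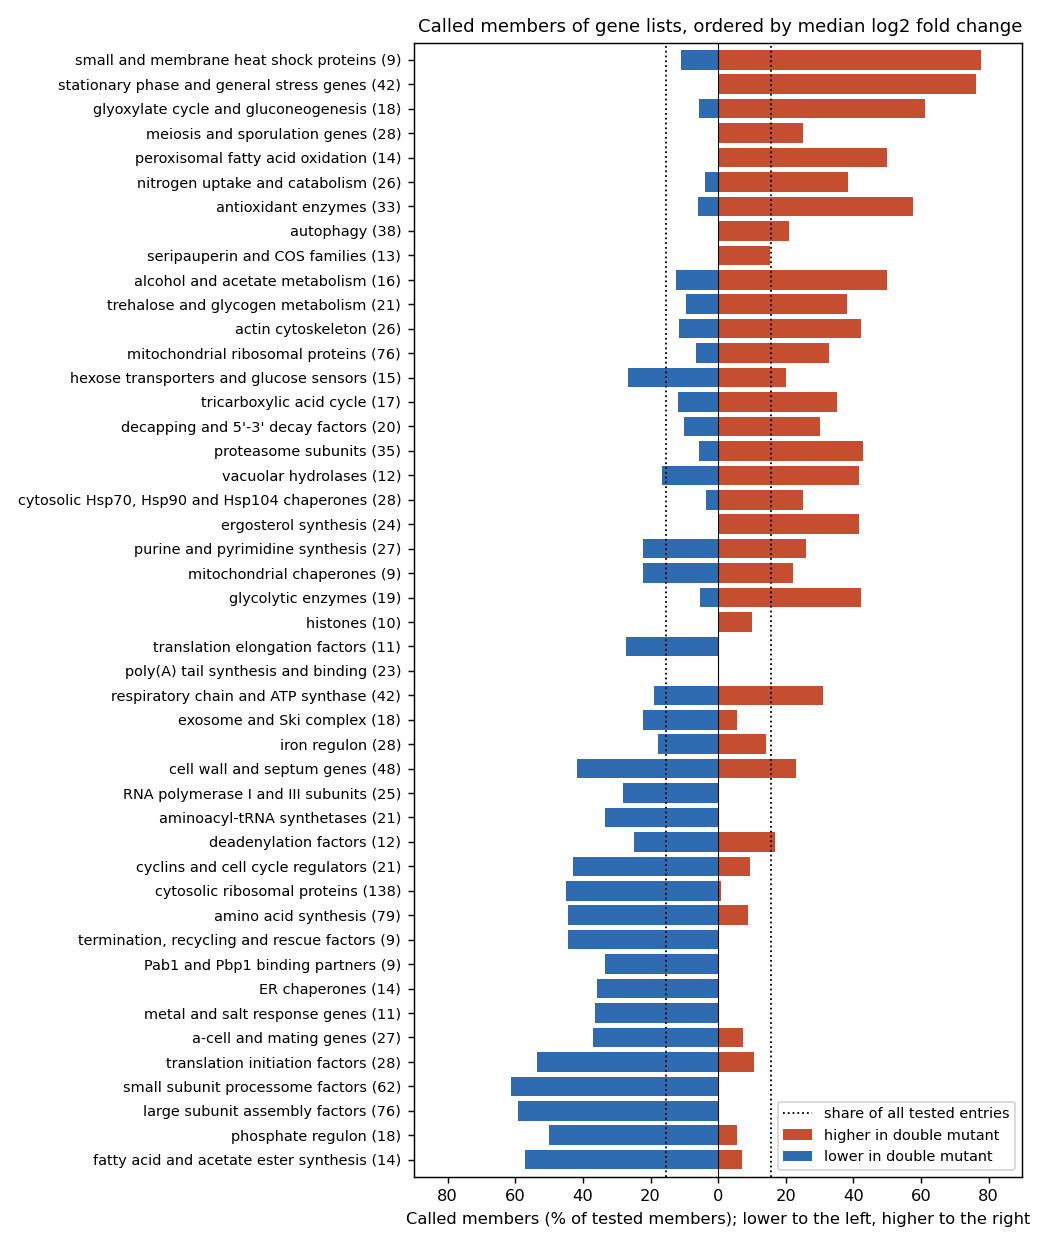
For each gene list with at least 9 tested members, given in parentheses, red bars show the share of tested members called higher and blue bars the share called lower in pab1Δpbp1Δ against WT, and dotted lines show the same shares of all tested entries, 15.7% and 15.3%. Lists stand in the order of their medians, with small heat shock proteins and stationary phase genes at the top and fatty acid and ester synthesis, the phosphate regulon and the assembly factors of both subunits at the bottom.

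Many cytosolic ribosomal protein genes were lower, unequally among paralogs. Of 138 genes, 62 were lower and 1 was higher, with a median log2 fold change of -0.42, and the higher call of RPL41A (0.87) was not called without pab1Δpbp1Δ replicate 3 or any 1 WT library (adjusted p = 0.0494, 0.0198, 0.0535 and 0.0401). Nor was RPL41A called with edgeR (adjusted p = 0.0204) or with all 9 libraries (0.0176). The genes took 18.1%, 17.2% and 16.8% of footprints in the WT libraries and 14.8%, 11.7% and 14.2% in the double mutant, a difference of -3.83 percentage points. In shares of summed FPKM, which weights transcripts by length, the difference was -7.39. Genes of the small subunit (22 of 56 lower, median -0.38) and of the large subunit (40 of 82 lower, median -0.43) had like values. Most yeast ribosomal proteins are encoded by a pair of near-identical genes. Among 59 such pairs, both genes were called in 12, 1 gene in 26 and neither in 21, and the log2 fold changes of the pair differed by over 1 in 10. RPS22B (chromosome XII, 856442 to 857317) had 2804, 2806 and 2659 normalized counts in WT and 170, 214 and 216 in the double mutant, whereas RPS22A had 4853, 3918 and 3592 in WT and 4255, 2777 and 4525 in the double mutant and was not called. RPS9A had 4199, 3840 and 4293 in WT and 276, 564 and 891 in the double mutant, and RPL9B 3985, 4018 and 3760 in WT and 1175, 589 and 578 in the double mutant. Their partners RPS9B and RPL9A had smaller log2 fold changes of -0.73 and -0.34. Reads that match both copies were divided by the quantification, so single-copy values are uncertain. The summed level of a pair does not depend on that division within the pair, and it was lower in the double mutant for 56 of the 59 pairs, with a median log2 ratio of -0.42. Of the ribosomal protein genes with an unspliced form in the table, 42 of 102 were lower, and of those without one, 20 of 36.

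Among factors of translation, initiation factors held the most lower calls. Of 28 initiation factors, 15 were lower and 3 higher (median -0.59). TIF4631, which encodes a paralog of eIF4G, the initiation factor that Pab1 binds, had 1835, 2041 and 2114 normalized counts in WT. In the double mutant it had 848, 954 and 780 (log2 fold change -1.21, SE 0.14). Its paralog TIF4632 (-1.22), the eIF3 subunit gene NIP1 (-1.28) and SUI1, which encodes eIF1 and acts in start codon choice (-1.39), fell by like amounts. Among the 3 higher, CAF20 (0.44), which encodes an eIF4E-binding inhibitor, and TIF11 (0.68), which encodes eIF1A, were each lost in the edgeR test (adjusted p = 0.0173 and 0.0169), and DBP1 (1.81) rested on 8.2 ± 2.82 and 28.9 ± 7.86 normalized counts (SD, n = 3 each) and was not called with the replicate block (adjusted p = 0.0409) or without pab1Δpbp1Δ replicate 2 or 3 (0.0547 and 0.0563). None of the 3 was called without WT replicate 1, 2 or 3. CAF20 was also higher in pbp1Δ against WT (0.49, DESeq2 adjusted p = 0.00198). For pab1Δpbp1Δ against pbp1Δ, CAF20 had -0.06 (adjusted p = 0.819). In termination and recycling, RLI1 (-1.32), SUP35 (-0.84), HBS1 (-0.80) and SUP45 (-0.66) were the 4 of 9 factors called, all lower, and 5 were not called. SUP35 encodes eRF3, the other translation factor that Pab1 binds, and had 1574, 1820 and 1837 in WT and 1006, 926 and 982 in the double mutant. Of 21 aminoacyl-tRNA synthetases, 14 were not called, none was higher and 7 were lower, led by MES1 (-1.23) and CDC60 (-1.07), the methionyl and leucyl enzymes. Elongation factors had a median of -0.02 (0.10 with total counts) and 3 of 11 lower, namely EFT1, EFB1 and TEF4, of which 1 was lower without WT replicate 3. EFB1, the exchange factor of elongation factor 1, fell from 11201 ± 943 to 5593 ± 1279 (SD, n = 3 each), and TEF4 (-0.55) was not called without WT replicate 2 or 3 (adjusted p = 0.0119 and 0.0427). Nor was TEF4 called with edgeR (adjusted p = 0.0148) or with total counts (0.0138). The footprint share of the list was 6.29% ± 0.351 in WT and 6.28% ± 0.301 in the double mutant (SD, n = 3 each).

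Of 23 genes for poly(A) tail synthesis and nuclear poly(A) binding, none was called by edgeR or by DESeq2 with the main settings (median -0.04). An unadjusted DESeq2 p-value below 0.05 was found for 4 of them. With total counts or with all 9 libraries, DESeq2 called 1 gene higher. Without pab1Δpbp1Δ replicate 2, it called 1 gene lower. The median was 0.07 with scaling by total counts. Of the partners that bind Pab1 or Pbp1, TIF4631, TIF4632 and SUP35 fell. The genes of the Pan nuclease had log2 fold changes of -0.73 for PAN2 and 0.01 for PAN3 and were not called (adjusted p = 0.0138 and 0.983). PAN2 was called with the gene table (0.00943), with the replicate block (0.003) and without pab1Δpbp1Δ replicate 2 (0.00467), where 5 of the 9 partners were lower in place of 3. The genes of the Pbp1 complex, MKT1 (-0.47) and LSM12 (0.39), were not called, nor were PBP2 (-0.49) and PBP4 (0.30). Of 12 deadenylation factors, the Ccr4-Not subunit genes NOT3 (-0.94), MOT2 (-0.87) and POP2 (-0.79) were lower, whereas CDC36 (1.35), of the same complex, and CAF16 (0.97) were higher. CDC36 had 393, 310 and 226 in WT and 916, 591 and 859 in the double mutant, with no overlap. Of 20 decapping and 5'-3' decay factors, 6 were higher and 2 lower (median 0.39). EDC1, an enhancer of decapping, had 93.8, 109 and 96.3 in WT and 585, 389 and 417 in the double mutant (log2 fold change 2.22, SE 0.23), and LSM2, of the Lsm ring, had a log2 fold change of 1.14. PBY1 (-0.97) was lower, and the decapping activator DHH1 (-0.57) was not called without WT replicate 1 or 2 or pab1Δpbp1Δ replicate 3 (adjusted p = 0.0157, 0.0192 and 0.0106). Nor was DHH1 called with edgeR (adjusted p = 0.0153) or with total counts (0.0148). NAM7, which encodes the nonsense-mediated decay helicase Upf1, had 867, 1039 and 1184 in WT and 470, 525 and 395 in the double mutant (log2 fold change -1.15, SE 0.18). Of 18 genes of the exosome, its cofactors and the Ski complex, 13 were not called, and the median was -0.09. The called share of 27.8% lay below the 30.9% of all tested entries. MTR4 (-1.10), DIS3 (-0.78), RRP6 (-0.73) and RRP43 (-0.79) were lower and LRP1 (0.95) higher. With total counts, 4 were lower and 3 higher, with a median of 0.02. RRP43 was not called without WT replicate 3 (adjusted p = 0.0176).

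Of 79 genes of amino acid synthesis, 35 were lower and 7 higher (median -0.42). The falls were led by the methionine and sulfate assimilation genes MET2 (-3.11) and MET3 (-1.97) and the arginine synthesis gene ARG56 (-1.61). SER3, of serine synthesis, went the other way, with 216, 202 and 214 normalized counts in WT and 1142, 3792 and 1264 in the double mutant. The log2 fold change of SER3 was 3.30 with all libraries and 2.51 without pab1Δpbp1Δ replicate 2, which was its highest library. GCN4, the transcription activator of amino acid synthesis, which was chosen after its values were seen, had 318, 214 and 216 in WT and 112, 148 and 117 in the double mutant (log2 fold change -0.98, adjusted p = 0.000448). In lipids, 10 of 24 ergosterol synthesis genes were higher and none lower, among them ERG2 (1.13), ERG28 (1.12) and the squalene synthase gene ERG9 (1.09). Of 14 genes of fatty acid and acetate ester synthesis, 8 were lower and 1 higher, the elongase gene ELO1 (1.15), and the share of the list overlapped between the groups, at 1.27% ± 0.0499 in WT and 1.02% ± 0.256 in the double mutant (SD, n = 3 each). OLE1, the sole fatty acid desaturase of yeast, had 9607, 8649 and 10087 in WT and 3759, 3241 and 3165 in the double mutant (log2 fold change -1.48), and ATF1, an alcohol acetyltransferase gene, fell from 169 ± 3.6 to 15.3 ± 10.4 (SD, n = 3 each, log2 fold change -3.60). Leaving out pab1Δpbp1Δ replicate 3 gave ATF1 a log2 fold change of -4.19. In purine and pyrimidine synthesis, calls were near balance, with 7 higher and 6 lower of 27. ADE17 rose (2.60), as did IMD2 (1.53), a member of a family of near-identical genes whose reads are divided among them.

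Of 42 tested stationary phase and general stress genes, 32 were higher and none lower, with a median log2 fold change of 2.24. Their share of footprints was 0.123%, 0.132% and 0.116% in WT and 0.322%, 0.389% and 0.327% in the double mutant, a ratio of 2.79. SPG4, named for survival in stationary phase, had 2.11, 2.99 and 1.01 in WT and 36.5, 175 and 63.8 in the double mutant, and its log2 fold change of 5.50 was 4.61 without pab1Δpbp1Δ replicate 2. Of 9 tested small and membrane heat shock proteins, 7 were higher (median 2.64), HSP30 (3.87) and HSP33 (4.52) among them at few counts, and 1 lower, the abundant MRH1 (-0.77). The share of the list was 0.142% ± 0.0187 in WT and 0.142% ± 0.0077 in the double mutant (SD, n = 3 each). HSP33 was not called without WT replicate 2 or 3 or pab1Δpbp1Δ replicate 2 (adjusted p = 0.0134, 0.0125 and 0.0169). Cytosolic chaperones of the Hsp70, Hsp90 and Hsp104 families had 7 of 28 higher and 1 lower. Their called share was 28.6%, beside 30.9% called and 15.7% higher of all tested entries. HSP82 and HSP104 had log2 fold changes of 0.48 and 0.51 and were not called (adjusted p = 0.0533 and 0.0726).

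Genes of defense against oxidants and of protein turnover were more often higher than lower. Of 33 antioxidant genes, 19 were higher and 2 lower (median 0.71). CTT1, the cytosolic catalase, had 25.3, 21 and 30.4 normalized counts in WT and 150, 185 and 193 in the double mutant (log2 fold change 2.78, SE 0.30). SRX1, the sulfiredoxin (4.57), and the peroxiredoxin gene TSA2 (3.10) rose from low counts. The 2 that fell were GSH1 (-1.91), the first enzyme of glutathione synthesis, and the thioredoxin reductase gene TRR1 (-0.93). Of 35 proteasome genes, 15 were higher and 2 lower (median 0.37), and their share of footprints was 0.75% ± 0.0227 in WT and 1% ± 0.027 in the double mutant (SD, n = 3 each). The assembly chaperone gene UMP1 (1.48) and RPN12 (1.31), of the lid, rose, and the ATPase gene RPT3 (-0.64) fell. Of 38 autophagy genes, 8 were higher and none lower, including the receptor genes ATG36 (2.46), for peroxisomes, and ATG40 (2.11), for the endoplasmic reticulum. The called share of autophagy genes was 21.1%, all higher. Of all tested entries, 30.9% were called and 15.7% were higher, so this list lay near the background. Of 14 chaperones of the endoplasmic reticulum, 5 were lower and none higher, and the lower calls numbered 3 without WT replicate 1. HAC1, the transcription factor of the unfolded protein response, had 722, 606 and 592 in WT and 120, 169 and 118 in the double mutant (log2 fold change -2.22, SE 0.21).

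In carbon metabolism, changes differed between isoenzymes. Of 19 glycolytic enzymes, 8 were higher and 1 lower, and 5 were higher without WT replicate 1 or 2. The share of footprints in glycolytic genes was 10.5%, 11% and 11.6% in WT and 11.6%, 13% and 14.3% in the double mutant, a difference of 1.93 percentage points. TDH1, the stress-induced glyceraldehyde-3-phosphate dehydrogenase, rose from 406 ± 8.93 to 2039 ± 558 (SD, n = 3 each, log2 fold change 2.33), and GLK1, the glucokinase, had a log2 fold change of 1.33. Of 14 genes of peroxisomal fatty acid oxidation, 7 were higher and none lower (median 1.29). POX1, the acyl-CoA oxidase, had 2.11, 0.998 and 0 in WT and 33.9, 40.7 and 37.9 in the double mutant, and SPS19, a dienoyl-CoA reductase gene, had 3.16, 4.99 and 5.07 in WT and 103, 117 and 95.6 in the double mutant. Of 18 tested genes of the glyoxylate cycle and gluconeogenesis, 11 were higher (median 2.14). This count was 2 without pab1Δpbp1Δ replicate 2, 6 without pab1Δpbp1Δ replicate 3 and 5 without WT replicate 2, and the share of the list did not separate the groups, at 0.12% ± 0.0169 in WT and 0.131% ± 0.0435 in the double mutant (SD, n = 3 each). ACH1 (-1.17), an abundant member that acts on acetyl-CoA, fell. Of 15 tested hexose transporters and glucose sensors, 3 were higher and 4 lower, and the median log2 fold change was 0.43 with DESeq2 and -0.02 with edgeR. The lower calls numbered 2 with edgeR, with total counts and without WT replicate 1 or 3 or pab1Δpbp1Δ replicate 3. HXT2 (-2.09) and HXT4 (-2.46), both of high affinity, were among those that fell, and HXT9 (4.48) and HXT10 (3.41) among those that rose. HXT2 had 3549, 2871 and 2761 in WT and 885, 710 and 551 in the double mutant, and HXT9 had 7.38, 5.99 and 0 in WT and 102, 81.5 and 114 in the double mutant, with a log2 fold change of 3.88 without WT replicate 3. In acetate metabolism the main cytosolic aldehyde dehydrogenase gene ALD6 (-0.96) fell from 17694 ± 1263 to 9100 ± 1260 and the stress-induced ALD3 (3.37) rose from 11.2 ± 2.42 to 116 ± 56.7 (SD, n = 3 each).

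Of 76 mitochondrial ribosomal protein genes, 25 were higher and 5 lower (median 0.45), and the lower calls numbered 2 without WT replicate 1 and 3 without WT replicate 2 or 3. MRPL20 had 163, 165 and 140 normalized counts in WT and 572, 494 and 528 in the double mutant (log2 fold change 1.77, SE 0.18), and MRPS16 (1.79) and MRPL50 (1.95) rose by like amounts. NAM9 (-0.98) and RSM23 (-1.03), both of the mitochondrial small subunit, fell. The median of this list was -0.37 for pbp1Δ against WT and 0.74 for pab1Δpbp1Δ against pbp1Δ, with 0 higher and 5 lower calls in the first and 34 higher and 0 lower in the second. These comparisons share libraries, and the difference between the medians was not tested. In the respiratory chain and ATP synthase, 13 of 42 were higher and 8 lower, and 8 were higher without WT replicate 2. The median of that list was -0.07, and it was 0.04 with scaling by total counts, 0.06 without pab1Δpbp1Δ replicate 2 and 0.07 without replicate 3. CYC7, the isoform of cytochrome c made at low oxygen, had 4.21, 7.98 and 9.12 in WT and 56.5, 53.9 and 54.6 in the double mutant (log2 fold change 2.95), whereas COX4 (-1.46), SDH1 (-1.11) and the NADH dehydrogenase gene NDI1, with 389 ± 19.8 in WT and 193 ± 23.1 in the double mutant (SD, n = 3 each), fell. NDI1 was also lower in pbp1Δ against WT (-0.72, DESeq2 adjusted p = 6.84e-05). For pab1Δpbp1Δ against pbp1Δ, NDI1 had -0.30 (adjusted p = 0.271). The citrate synthase gene CIT1 (1.36) rose, as did HSP60 (0.89) and HSP10 (0.83), the mitochondrial chaperonin and its cofactor. These were 2 of 9 mitochondrial chaperones and proteases, of which 2 others were lower, PIM1 (-0.67) and MDJ1 (-0.55). Neither PIM1 nor MDJ1 was called with edgeR (adjusted p = 0.0151 and 0.019), with total counts (0.0121 and 0.0229), without WT replicate 1 (0.0269 and 0.0278) or without WT replicate 2 (0.0149 and 0.0116). MDJ1 was also not called without WT replicate 3 (0.0306) or pab1Δpbp1Δ replicate 3 (0.0104).

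**Figure D4:**
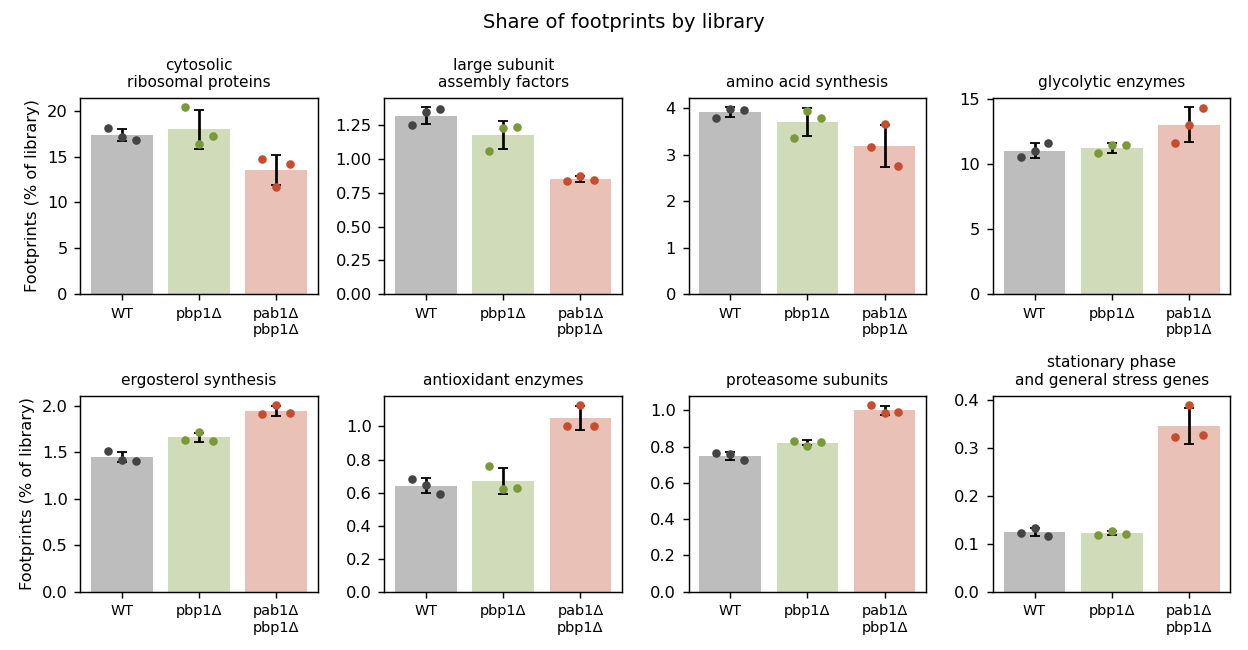
Dots show the percentage of all expected counts of each library that fell in 8 gene lists, bars show the mean of 3 libraries and error bars the SD. The WT and pab1Δpbp1Δ libraries do not overlap in any of the 8 panels, with pbp1Δ drawn for reference. The 8 lists were picked from 49, of which 13 lay wholly below WT, 20 wholly above it and the rest overlapped. For glycolytic enzymes, the nearest libraries of the groups were both at 11.6%.

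Across the 49 lists, the footprint share of the double mutant lay wholly below that of WT in 13 and wholly above it in 20. An exact two-sided permutation test of 3 against 3 libraries cannot give a p-value below 0.1, so none of these share differences could pass a threshold of 0.05, and the lowest adjusted p over the 49 tests was 0.148.

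Of 48 cell wall and septum genes, 20 were lower and 11 higher. The endochitinase gene CTS1, which acts in cell separation after cytokinesis, had 5559, 5646 and 5687 normalized counts in WT and 1350, 1284 and 1448 in the double mutant (log2 fold change -2.05, SE 0.12), and the glucanase gene SCW11 (-1.88) fell by a like amount. PIR1 (-1.91) fell and PIR3 (2.53), of the same family of cell wall proteins, rose. The higher calls of the list numbered 7 with edgeR, 6 without WT replicate 2 and 7 without WT replicate 3. Of 21 cyclins and cell cycle regulators, 9 were lower and 2 higher, PCL1 (0.68) and PCL5 (3.65), neither of which was called without WT replicate 2 or 3. The share of the list overlapped between the groups, at 0.127% ± 0.00288 in WT and 0.116% ± 0.0206 in the double mutant (SD, n = 3 each). The lower calls were those of genes including the G1 cyclin gene CLN2 (-1.58), the Pho85 cyclin gene PCL9 (-1.28) and FAR1 (-2.31), the cyclin-dependent kinase inhibitor of the pheromone response. Of 26 actin cytoskeleton genes, 11 were higher and 3 lower, with rises of the Arp2/3 subunit genes ARC15 (1.28) and ARC19 (0.99) and a fall of the myosin gene MYO5 (-1.11).

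Of 27 tested a-cell and mating genes, 10 were lower and 2 higher (median -0.59). BAR1, the protease that degrades α-factor, had 2605, 2603 and 2845 normalized counts in WT and 517, 1128 and 663 in the double mutant (log2 fold change -1.80), and STE2, the α-factor receptor, fell from 2425 ± 148 to 1214 ± 187 (SD, n = 3 each). STE18, the γ subunit of the G protein of the pheromone pathway, rose from 112 ± 15.7 to 416 ± 73.1 (SD, n = 3 each, log2 fold change 1.89). SST2 (-2.09), the regulator of that G protein, was not called without WT replicate 1, 2 or 3 (adjusted p = 0.0212, 0.0369 and 0.041). Both α-cell genes that were tested were higher: STE3, the a-factor receptor, had 6.32, 3.99 and 7.1 in WT and 63.5, 62.8 and 48.6 in the double mutant (log2 fold change 3.34), and SAG1 (2.32), the α-agglutinin, rose from 7.87 ± 2.5 to 39.8 ± 26.5 (SD, n = 3 each). SAG1 was not called without WT replicate 2 or 3 or pab1Δpbp1Δ replicate 2 or 3 (adjusted p = 0.0266, 0.0106, 0.0171 and 0.0693) or with the replicate block (0.0126). HMRA1, which was chosen after its values were seen, had 54.8, 42.9 and 51.7 in WT and 310, 267 and 185 in the double mutant (log2 fold change 2.36). The silent HMRA1 repeats the sequence of the expressed MATa1, so its reads cannot be assigned to either locus. SIR2, the deacetylase gene of the silent loci, likewise chosen afterward, fell (-1.30), whereas SIR3 and SIR4 had log2 fold changes of -0.05 and 0.06 and were not called. Of 28 tested meiosis and sporulation genes, 7 were higher and none lower, each from a few counts, and the count was 4 without WT replicate 2 or 3 or pab1Δpbp1Δ replicate 2 or 3. The called share of the meiosis list was 25%, all higher, beside 30.9% called and 15.7% higher of all tested entries. SPS1, a sporulation kinase gene, had 0, 0 and 1.01 in WT and 14.8, 22.8 and 15.2 in the double mutant.

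Of 18 genes of the phosphate regulon, 9 were lower and 1 higher (median -0.73), with falls of the transporter genes PHO84, PHO89 (-1.54) and GIT1 (-1.49) and a rise of the acid phosphatase gene PHO3 (1.21). Calls in the iron regulon were near the background shares: 5 of 28 were lower, including TIS11, FRE4 and FRE1 (-1.97), and 4 were higher, including ISU1 (1.82), which encodes the scaffold of iron-sulfur clusters. The WT libraries differed among themselves in these genes, with 168, 124 and 335 normalized counts of FRE4 and 879, 1130 and 547 of FRE1, and 3 members were lower without WT replicate 3. Of 26 tested genes of nitrogen uptake and catabolism, 10 were higher and 1 lower (median 0.95), and 6 were higher without WT replicate 1 or pab1Δpbp1Δ replicate 2. DUR12, the urea amidolyase gene, had 327, 439 and 405 in WT and 1321, 5953 and 1525 in the double mutant, and its log2 fold change of 2.91 was 1.87 without pab1Δpbp1Δ replicate 2.

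Some genes differed strongly among the double mutant libraries. Among 3781 entries with a mean of at least 100, replicate 1 lay over 4-fold away from both other pab1Δpbp1Δ libraries in 7, replicate 2 in 1 and replicate 3 in 3, against 0, 0 and 2 for the WT libraries. The WT libraries were technical replicates, unlike the isolates of the double mutant. PCL5, a cyclin gene of the Pho85 kinase (chromosome VIII, 237004 to 237693), had 121, 122 and 96.3 normalized counts in WT and 82.6, 1980 and 2193 in the double mutant. Replicate 1 lay below WT and replicates 2 and 3 far above it, so the groups overlapped although PCL5 was called (log2 fold change 3.65, adjusted p = 0.00349), and the call was lost without any WT library or without replicate 2 or 3. It was also lost with the replicate block (adjusted p = 0.0436). YJL043W (chromosome X, 360130 to 360903), a gene of uncharacterized function that was chosen after its values were seen, had 0, 2.99 and 1.01 in WT and 0.869, 689 and 653 in the double mutant. CIT2, of the glyoxylate cycle, had 271, 1618 and 1125 in the double mutant against a WT mean of 142. Replicate 1 did not lie to one side of the others in all 7 entries: in SST2 it was the farthest from WT, with 53, 249 and 238 in the double mutant against a WT mean of 765, whereas in CIT2, SSA3 and TIS11 it was the nearest.

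Unspliced forms were rare. Of 222 tested unspliced entries, 10 were higher and 2 lower (5.41% called), and their median log2 fold change was 0.52 against 0.05 for all tested entries. Over 296 genes with both forms, unspliced forms took 0.296%, 0.424% and 0.268% of counts in WT and 0.395%, 0.522% and 0.689% in the double mutant, and the groups overlapped. The highest calls were TFC3, PHO85 and VMA10, each with 0 in all WT libraries. The unspliced entry of TFC3 had 36.5, 29 and 131 in the double mutant, at least 21.3-fold above 3 counts per WT library. The sum of both TFC3 forms was 182 ± 11.2 in WT and 165 ± 14.3 in the double mutant (SD, n = 3 each), and the spliced form had 182 ± 11.2 in WT and 100 ± 70.9 in the double mutant. For PHO85, the summed forms were 341 ± 44.3 in WT and 642 ± 141 in the double mutant. The unspliced entry of PHO85 was not called without pab1Δpbp1Δ replicate 3 (adjusted p = 0.0153), nor that of VMA10 without pab1Δpbp1Δ replicate 2 or 3 (adjusted p = 0.0192 and 0.0166) or with the replicate block (0.0112). The unspliced entry of OAZ1 (0.87) was called in every alternative run. Those of QCR10 (-2.23) and RPS4A (-1.56) were lower, but QCR10 was not called without WT replicate 1, 2 or 3 (adjusted p = 0.0183, 0.0272 and 0.0263) or with all 9 libraries (0.0156), and RPS4A was not called without WT replicate 2 (0.0267).

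The direction of change varied with the length of the transcript. Effective transcript lengths were derived from the deposited counts and FPKM, and 5216 spliced or intronless entries that averaged 10 or more normalized counts were split into 5 length classes of like size, a division chosen after the data were seen. In length class 1, the shortest (244 to 866 bases), 37.7% of entries were higher and 6.99% lower, with a median log2 fold change of 0.58. In length class 5, the longest (2360 to 14964 bases), 5.75% were higher and 24.9% lower, with a median of -0.26. The medians of classes 2, 3 and 4 were 0.25, -0.07 and -0.24. Each double mutant library showed the gradient: relative to the WT mean, its median in class 1 was 0.65, 0.47 and 0.57, and the WT libraries themselves had 0.06, 0.00 and -0.09. In class 5 the medians were -0.39, -0.11 and -0.36 for the double mutant libraries and -0.09, 0.01 and 0.08 for WT. In class 1, pbp1Δ replicate 1 had a median of 0.31, and pbp1Δ replicates 2 and 3 had 0.02 and 0.10. In class 5, pbp1Δ replicates 1, 2 and 3 had -0.27, -0.03 and -0.07. Across entries, the Spearman correlation of length and log2 fold change was -0.38, with libraries shared by all points, and it lay between -0.44 and -0.32 when any single library was left out. The same correlation was -0.37 for pbp1Δ against WT and -0.29 for pab1Δpbp1Δ against pbp1Δ, comparisons that share libraries with this one. For pbp1Δ against WT, the medians of classes 1 and 5 were 0.17 and -0.12. That gradient had the same direction, was smaller, and was widest in pbp1Δ replicate 1. Whether the gradients differed was not tested. Without the ribosomal proteins of both compartments and the assembly factors, the medians of classes 1 and 5 were 0.71 and -0.24.

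**Figure D5:**
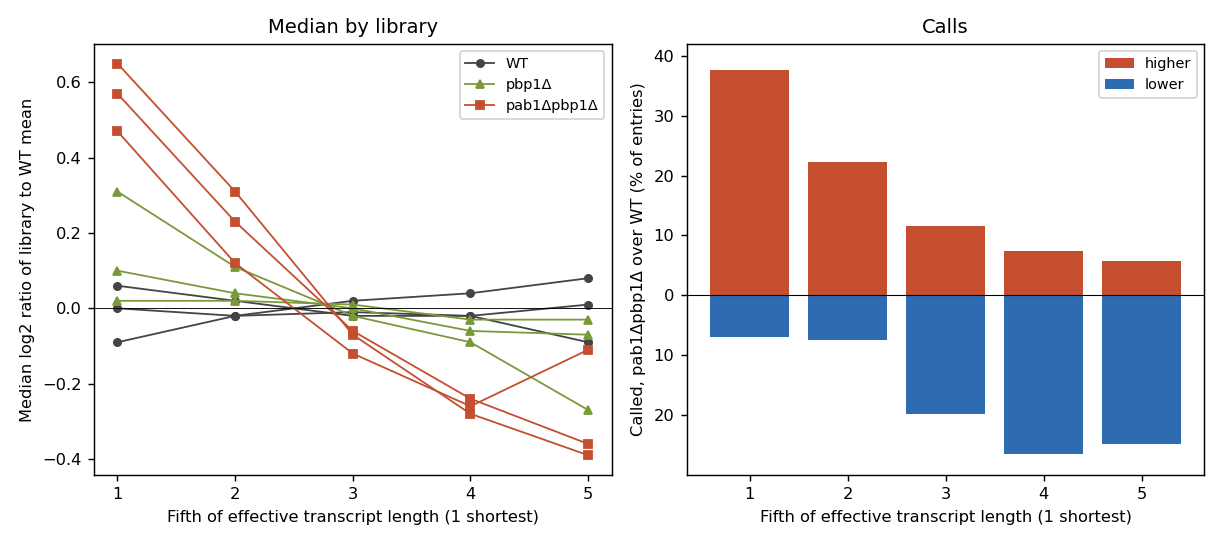
The left panel shows, for each of the 9 libraries, the median log2 ratio to the WT mean in 5 classes of effective transcript length; the right panel shows the percentage of entries called higher (above 0) and lower (below 0) in pab1Δpbp1Δ. The 3 double mutant libraries fall from 0.47 to 0.65 in the shortest class to between -0.39 and -0.11 in the longest, and calls change from mostly higher to mostly lower.

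Lists differ in length, so each entry was also set against the median of its own length class. Mitochondrial ribosomal proteins, whose median length was 790 bases, then had a median of -0.02 in place of 0.45, and cytosolic ribosomal proteins, with a median length of 635 bases, one of -0.97 in place of -0.42. The median of respiratory chain genes went from -0.08 to -0.40, that of the proteasome from 0.37 to 0.19 and that of decapping and 5'-3' decay factors from 0.39 to 0.06. Stationary phase and stress genes (1.92), antioxidant genes (0.51), ergosterol synthesis (0.30), peroxisomal fatty acid oxidation (1.39), and large subunit assembly factors (-0.70) kept medians of the same sign. The sign turned for aminoacyl-tRNA synthetases, from -0.25 to 0.02, and for mitochondrial chaperones, from 0.21 to -0.03. It also turned for histones, from 0.06 to -0.50, and for elongation factors, from -0.05 to 0.04. Hexose transporters and glucose sensors went from -0.03 to 0.22, over the 10 entries with a length class of the 15 tested. The part of transcript length in the counts of called members was not tested.

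Genes near chromosome ends were higher more often than genes elsewhere in these data. Within 20 kb of the first or last annotated gene end of a chromosome, 35 of 106 entries were higher (33%) and 14 lower (13.2%), with a median log2 fold change of 0.53. Beyond 100 kb, 625 of 3982 were higher (15.7%) and 701 lower (17.6%), with a median of -0.04. The median effective length was 1450 bases in the first set and 1470 in the second. Many genes near chromosome ends belong to families of near-identical members, which makes their single counts uncertain. This division was also chosen after the data were seen.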

How the data were processed

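Ribosome footprints were sequenced from 3 WT, 3 pbp1Δ and 3 pab1Δpbp1Δ libraries. Per the methods and the submitters' processing notes, lysates were treated with RNase I and monosomes collected, and the authors removed duplicates with UMI-tools, trimmed adapters with cutadapt 1.9, discarded noncoding RNA reads and estimated expected counts with RSEM 1.3.0 and Bowtie 1.0.0 on a spliced and unspliced yeast transcriptome (R64). The deposited expected counts, which need not be whole and were rounded here, were tested with DESeq2 1.42.0 (Wald test, Benjamini-Hochberg adjustment, independent filtering at 0.01) in the 6 libraries compared, and adjusted p below 0.01 was called. The deposited FPKM values, which the authors scaled by length and depth, were used for effective lengths and for limma 3.58.1 at a mean FPKM of at least 1. edgeR 4.0.16 was an alternative. Libraries were sequenced in multiplexed sets of 3, and which libraries shared a set is not given in the sources used here, so a batch could not be tested.

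Named genes were the deleted and marker genes, the 10 highest and 10 lowest log2 fold changes among calls that averaged 100 or more normalized counts and did not overlap, the 5 largest rises and falls in count, and members of the gene lists. Members and lists were chosen with earlier results of these data known. Scripts were tested on simulated data.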

Additional observations from a re-analysis of the deposited data

How the results depend on the processing

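The 1818 calls, 921 of them higher, numbered 1698 (894 higher) with edgeR, 1825 with TMM factors, 1793 (1098 higher) with total counts, 1835 with size factors set without ribosomal proteins, 1990 with all 9 libraries, 1860 with the gene table, and 1610 and 1565 with limma at pseudocounts of 1 and 0.1. Without any 1 library they numbered 1321 to 1715. Of the calls, 926 changed by at least 1 on the log2 scale, 305 of them lower, and limma on log2(FPKM + 0.1) gave 583 lower calls. The difference in the share of ribosomal proteins was -3.83 percentage points in counts and -7.39 in summed FPKM. With the replicate block, 1609 entries were called, 792 of them higher. The correlations of same-numbered libraries' deviations were 0.375, 0.12 and 0.0291, so the numbers were not taken to pair the samples. Of 218 called named genes, 167 kept their call in all 12 alternatives, and 524 of 588 list counts stayed within 1.5 times. Sign changes occurred for uncalled genes: PAN3 (0.01) was -0.01 with size factors set without ribosomal proteins and -0.04 to 0.03 when any 1 library was left out. CAN1 (-0.03) was 0.09 with total counts and -0.38 to 0.24 when any 1 library was left out. HIS3 (-0.18) was -0.55 to 0.15 when any 1 library was left out, 0.15 being that without WT replicate 1. The causes were not tested. Counts by promoter motif were not run. Genes with few counts, and near-identical copies, limit what single values show, and isolates of 1 lineage against 1 WT strain limit the p-values.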
